A study of Mus musculus with 12 samples.

Results

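Hox genes and their Cdx regulators were followed in the mouse yolk sac, the membrane around the embryo in which the first blood cells form. The genes were taken by name from the probes for transcripts: 38 Hox genes of the clusters Hoxa, Hoxb, Hoxc and Hoxd, with Cdx1, Cdx2 and Cdx4, together 41 of the 27573 genes on the array. These genes had 53 probes in all, and the probe with the highest mean processed Cy5 signal stood for its gene. On the array's own probe positions the Hoxa, Hoxb, Hoxc and Hoxd clusters lie on chromosomes 6, 11, 15 and 2, and Cdx2 lies on chromosome 5.

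The samples were yolk sacs of wild-type mice and of mice homozygous for V1068G, a point mutation in Arid1a (Baf250a), taken at embryonic day 8.5 (E8.5) and 9.5 (E9.5) on a CD1 background. Arid1a encodes a subunit through which the chromatin remodeller SWI/SNF touches DNA with an ARID domain, and the series concerns whether that DNA contact is needed for SWI/SNF to occupy promoters. The 4 groups had 3 biological replicates each, 1 per array. Whether yolk sacs were pooled for a replicate is not stated in the labels. Every array set yolk sac RNA in Cy5 against the same reference RNA in Cy3, from whole neonatal wild-type mice of mixed 129Sv and C57BL/6 background, with no dye swap. A log2 ratio above 0 therefore means more signal from yolk sac than from the neonate for that probe, and it carries any dye bias of the probe.

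Hox genes encode homeodomain transcription factors that give cells their position along the body axis. They lie in 4 clusters, and genes with low numbers at one end of a cluster are in general switched on earlier and further forward than genes with high numbers at the other end. The Cdx genes encode related homeodomain factors that switch on central Hox genes in the posterior embryo, and Cdx2 also works in the trophoblast lineage; Cdx and Hox genes are known for a role in the first blood formation in the yolk sac. SWI/SNF and trithorax proteins are known to keep Hox genes active, and Polycomb proteins to keep them silent.

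Between 46.7% and 50.1% of the probes on an array were well above background in Cy5, the scanner software's flag for a spot clearly brighter than its local background. The yolk sac markers Afp and Hbb-y, of visceral endoderm and primitive blood, were well above background on all 12 arrays. Position on the slide and group cannot be told apart, since each group had a fixed position. The trophoblast hormone gene Prl4a1 had a log2 ratio of 5.70 on replicate 3 of the mutant at E8.5, of 4.31 on replicate 3 of wild type at E9.5, of 3.74 on replicate 3 of the mutant at E9.5, and of 0.26 to 1.53 on the other arrays. Arid1a, whose mutation is a base change that its transcript level does not check, differed between genotypes by 0.05 ± 0.06 at E8.5 and 0.16 ± 0.06 at E9.5 (SE of limma; adjusted p = 0.827 and 0.303).

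Among the arrays, 1 stood apart for Hox genes. Wild-type E8.5 replicate 2 had the highest processed Cy5 signal of the 12 arrays for 16 of the 41 genes, of which 10 were well above background there. Among the 13 tested genes it had the highest Cy5 signal for 6, against 12.1% of all genes tested. It lay over 0.1 above the mean log2 ratio of the other wild-type E8.5 arrays for 39.0% of the 41 genes and 29.7% of all genes tested. Its log2 ratio was the highest of all arrays for 5 of the 13 genes that entered the tests, and the same array was highest for 18.7% of all genes tested. Hoxb9, a posterior Hox gene, had a Cy5 signal of 734 there and of 15.9 to 90.4 on the other 11 arrays. Hoxa7, a central Hox gene, reached 1931 there against 570 to 900 elsewhere, and Hoxa2, Hoxd4 and Hoxa9 were also far above their other arrays.

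Heart and neural markers, of the embryo proper, were high on that array too. The sum of 11 somite, limb and allantois markers, at 7284, lay within the 5383 to 12422 of the other arrays. Of these 11, 4 were well above background there. Pitx1 gave 4623 of the sum and was at 4538 to 11419 elsewhere. Tcf15, Meox1 and Meox2 had their highest Cy5 signal there, at 1267, 380 and 656. Elsewhere Tcf15 was at 143 to 246, Meox1 at most at 74 and Meox2 at 333 to 574. The mean log2 ratio of the 11, at -0.19, was also the highest of the 12 arrays. The summed Cy5 signal of 11 heart markers was 51072 there and 23862 to 32592 elsewhere, with all 11 well above background. Myl7, an atrial myosin light chain, was at 0.01 there and its lowest array was at -3.14. The summed signal of 10 neural markers was 6781 there and 3061 to 4301 elsewhere, with 6 of 10 well above background, and 4 of the 10 were not well above background on any array. Aldh1a2, which makes the Hox inducer retinoic acid, was at -0.27 there and between -1.64 and -1.30 on the other arrays. The part of such tissue in the Hox values of this array was not tested, so results that use it are given with and without it.

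**Figure D1:**
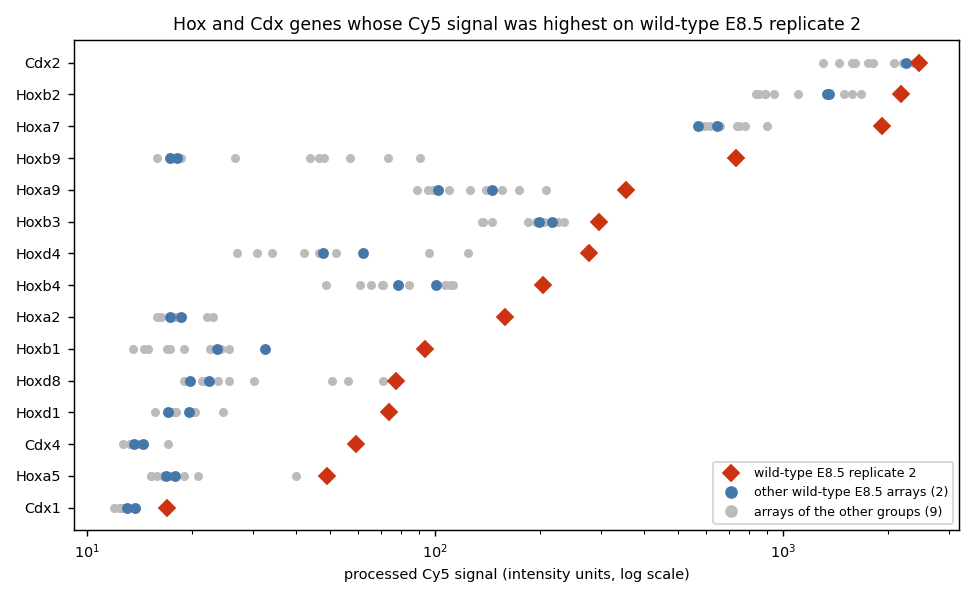
Processed Cy5 signal (intensity units, log axis) of 15 of the 16 Hox and Cdx genes whose signal was highest on wild-type E8.5 replicate 2. The red diamond is that array, blue points are the other 2 wild-type E8.5 arrays and grey points the 9 arrays of the other groups; Hoxb9, Hoxa2 and Hoxa7 stand far to the right of their other arrays, and Cdx2 hardly does.

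Detection came first, since many Hox genes gave little signal in the yolk sac. Of the 41 genes, 11 were well above background in Cy5 on all 12 arrays, 10 on some arrays and 20 on none. Over all genes of the array 45.6% were well above background in Cy5 on all 12 arrays, against 26.8% of the Hox and Cdx genes. In the neonatal reference 20 of the 41 (48.8%) were well above background on all 12 arrays, against 56.6% of all genes. A gene not well above background has only an upper bound here, not a level of 0.

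The detected genes were unevenly spread over the clusters. Hoxb had 5 of its 10 genes well above background on all 12 arrays, namely Hoxb2, Hoxb3, Hoxb5, Hoxb6 and Hoxb7, which lie next to each other in the numbering except for Hoxb4. Hoxa had 3 of 11, Hoxa7 and Hoxa9 among them, and Hoxc had 2 of 8 (Hoxc6 and Hoxc9). Hoxd had 0 of 9: 8 of its genes were not well above background on any array in Cy5, while 4 of the 9 were on all 12 arrays in the neonatal reference. Hoxd4 was the exception in Cy5, on 3 arrays.

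None of the 6 genes numbered 12 or 13 was well above background in Cy5 on any array, and Hoxa13, Hoxb13, Hoxc13 and Hoxd12 were not in the reference either. In the reference Hoxc12 was so on 1 array and Hoxd13 on 12. Of the Cdx genes only Cdx2 was well above background, on all 12 arrays in both channels. Cdx1 and Cdx4 were not on any array in either channel, so no array of these 12 shows that their probes can give signal.

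Hoxc4 and Hoxc8 lay close to the filter for testing, which asked for Cy5 well above background on the 3 arrays of some group. They passed with 11 and 8 arrays, those of Hoxc8 being all 6 arrays of E9.5 and 1 array in each group of E8.5. Just outside were Hoxa11 with 7 arrays, in no group all 3, and Hoxb4 with 5. In all 13 genes passed, Cdx2 among them, and a gene that passed through the group in which it was high, as Hoxc8 did through E9.5, was bound to be higher there.

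**Figure D2:**
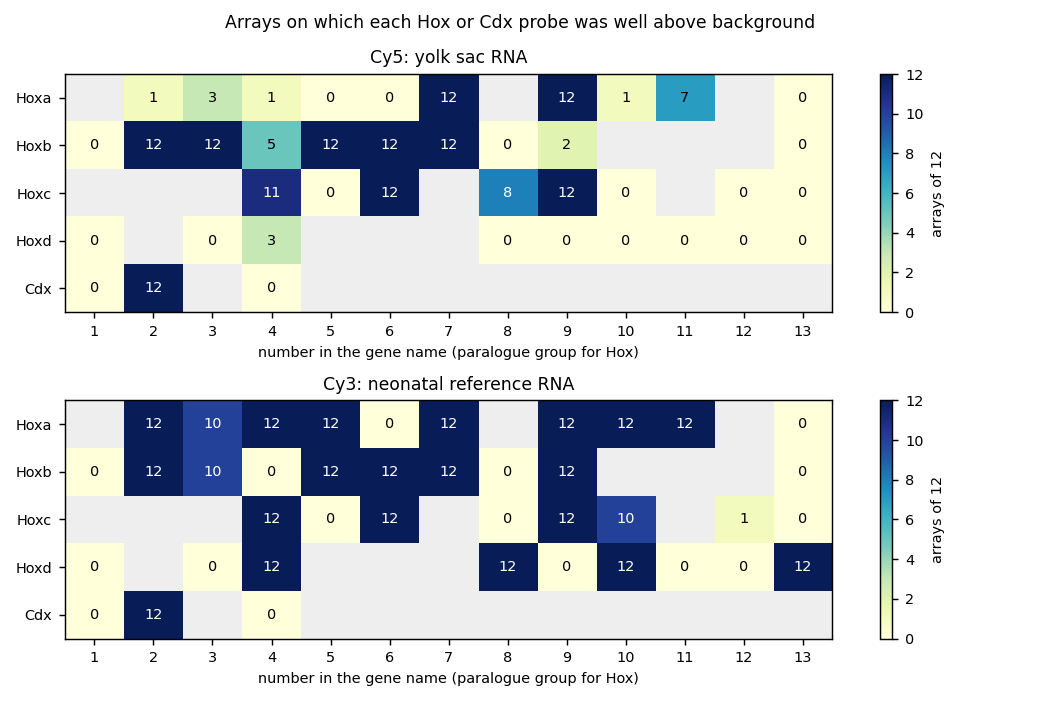
Number of the 12 arrays on which each gene's probe was well above background, for yolk sac RNA in Cy5 (upper) and the neonatal reference in Cy3 (lower), by cluster (rows) and number in the gene name (columns). Grey cells are numbers with no gene in the set or none shown; the Hoxd row is nearly empty in Cy5 and holds 4 genes at 12 arrays in Cy3.

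Against the neonatal reference, 9 genes could be read in both channels on all 12 arrays. Cdx2, Hoxb6, Hoxb2 and Hoxc6 were above the reference, with mean log2 ratios over the 12 arrays of 0.71, 0.65, 0.36 and 0.31. Hoxb5, Hoxa9, Hoxb7, Hoxc9 and Hoxa7 were below it, at -0.24, -0.27, -0.41, -0.71 and -1.44. With other scalings of the same arrays the same 4 of 9 were above, but the sizes moved by over 1.5 times: up to 1.19 for Cdx2, 1.57 for Hoxb6, 0.76 for Hoxb2 and 1.15 for Hoxc6, and down to -0.96 for Hoxa9. Hoxb6 and Hoxb2 each have another, dimmer probe, and on it both genes lay below the reference, at a mean log2 ratio of -0.08. Those probes were well above background in Cy5 on 7 and 9 arrays and in Cy3 on all 12, so the side of the reference depended on the probe. No test was made, since without a dye swap the size of a ratio cannot be separated from the probe's dye bias.

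Hoxa7, the gene farthest below the reference, had log2 ratios of -1.68 to -1.38 on 11 arrays and -0.61 on wild-type E8.5 replicate 2. The other central gene of its paralogue group, Hoxb7, lay between -0.69 and -0.22. Hoxc8, a central gene of the Hoxc cluster, was not well above background in the reference on any array, so its yolk sac signal was at least 1.24-fold higher in wild type at E9.5 and at least 1.16-fold higher in the mutant at E9.5. These bounds set the group's mean log2 signal against the reference's, taken per array as the higher of its own value and the lowest signal that counted as well above background. Hoxd8, by the same rule in the other direction, had a signal at least 1.35-fold to 1.42-fold higher in the reference than in each of the 4 yolk sac groups. The bounds of both genes carry the probe's dye bias, so they hold for the signal and not for the amount of RNA.

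**Figure D3:**
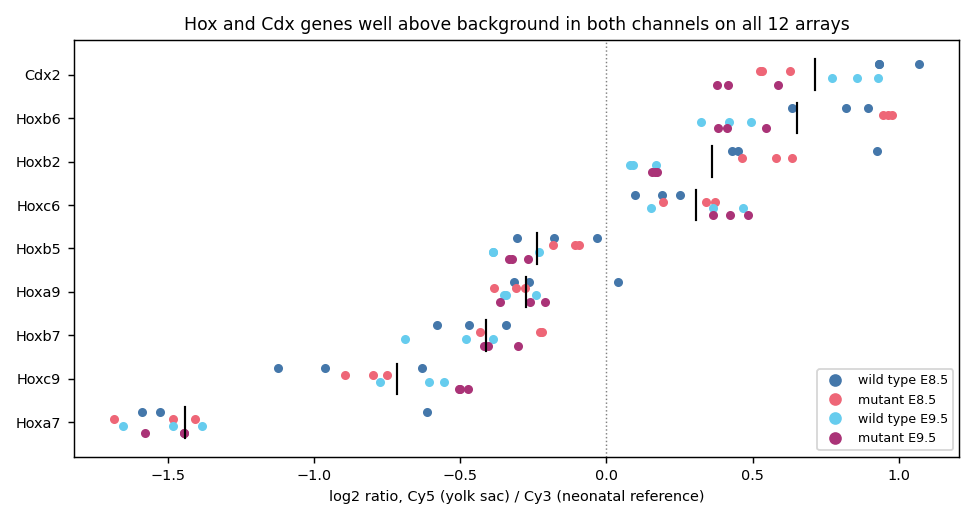
Log2 ratio of yolk sac (Cy5) to neonatal reference (Cy3) on each of the 12 arrays for the 9 genes well above background in both channels throughout. Colours give the 4 groups of 3 arrays and the black bar the mean of 12; Cdx2, Hoxb6, Hoxb2 and Hoxc6 lie above 0, and the single Hoxa7 point at -0.61 is wild-type E8.5 replicate 2.

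The comparison of genotypes asks which of these genes depended on the DNA contact of Arid1a. At both stages Cdx2 was lower in the mutant, and no Hox gene passed the threshold of an adjusted p under 0.05 at either stage. Thus 1 of the 13 tested genes was called at E8.5 and 1 at E9.5, where 1.44% and 1.99% of all 13895 genes tested were called in either direction, and 0.727% and 1.08% as lower in the mutant. All adjusted p-values are from limma with Benjamini-Hochberg adjustment over all genes tested, and ± is the standard error (SE) unless given as SD.

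Cdx2 (probe A_52_P177490, the only one for Cdx2 on the array) had log2 ratios of 0.93, 0.93 and 1.07 in wild type at E8.5 and of 0.63, 0.53 and 0.53 in the mutant at E8.5, in the order of the replicates. At E9.5 it stood at 0.86, 0.93 and 0.77 in wild type and at 0.41, 0.38 and 0.59 in the mutant. Every wild-type array was higher than every mutant array, across stages as well as within them, while 17.9% of all genes tested had groups that did not overlap in either direction at E8.5 and 17.1% at E9.5. Cdx2 fell by 0.42 ± 0.07 at E8.5 (3 arrays against 3; 95% interval -0.56 to -0.27; adjusted p = 0.00653), a signal 1.33-fold lower. At E9.5 it fell by 0.39 ± 0.07 (interval -0.54 to -0.25; adjusted p = 0.00614), 1.31-fold lower.

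The 2 differences for Cdx2 were close to each other: the E9.5 difference minus the E8.5 difference was 0.02 ± 0.10, with a 95% interval of -0.18 to 0.23 (adjusted p = 0.993). Since no array overlapped between genotypes, Cdx2 was bound to be lower in the mutant within each of the 3 scans. The differences within a scan were -0.54 to -0.31 at E8.5 and -0.55 to -0.18 at E9.5. Without wild-type E8.5 replicate 2 Cdx2 fell by 0.44 at E8.5 (adjusted p = 0.00897). With arrays centred on their medians in place of loess the differences were -0.53 and -0.47 and neither passed (adjusted p = 0.224 and 0.256), and with the level of Xist as a covariate for the sex of the embryos the E8.5 difference was -0.44 (adjusted p = 0.122). Xist itself was uneven over the groups. It differed between genotypes by -2.29 ± 0.64 at E8.5 and 1.32 ± 0.64 at E9.5 (adjusted p = 0.101 and 0.441 in limma). Between stages in the mutant it differed by 2.18 ± 0.64 (adjusted p = 0.0240 in limma). The covariate is thus partly tied to the groups, and the part of embryo sex in these differences was not tested. In bulk tissue, fewer cells that express Cdx2 and less Cdx2 RNA per cell cannot be told apart. Some markers of other yolk sac cells also moved with genotype at E8.5. Of 12 extraembryonic mesoderm and mesothelium markers 4 (Col1a1, Col3a1, Pdgfra and Postn), and of 8 endothelial markers 1 (Sox17), were called higher in the mutant. Of all 13895 genes tested, 99 were called higher. None was called of 10 visceral endoderm markers or of 8 primitive blood markers. The summed Cy5 signal of the mesoderm list was 45235 to 56277 in the mutant and 35663 to 37565 in wild type at E8.5, and 79544 to 98512 and 87595 to 101165 at E9.5. At E8.5 the endothelial sum was 12026 to 12949 in the mutant and 10434 to 11333 in wild type. The primitive blood sum was 829576 to 1084665 in the mutant and 727916 to 804077 in wild type at E8.5. Both of these overlapped at E9.5, and the visceral endoderm sum overlapped at both stages. The sum of the 11 somite, limb and allantois markers was lower in the mutant at E8.5, at 5383 to 6450 against 7159 to 7698 in wild type. It overlapped at E9.5, at 7443 to 10714 in the mutant and 9214 to 12422 in wild type. Of its 3 tested markers 0 were called at E8.5. The part of these cell types in the fall of Cdx2 was not tested.

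Because Cdx2 also marks trophoblast, its call was set beside the trophoblast markers. Of the list of 12 trophoblast stem cell factors, 6 were well above background on all 12 arrays, namely Cdx2, Tead4, Hand1, Gata3, Ets2 and Fgfr2. Of the others, Tfap2c was so on 7 arrays, Eomes and Elf5 on 1 array each and Esrrb on none. Without the 3 arrays high in Prl4a1, Cdx2 fell by 0.40 at E8.5 and by 0.50 at E9.5 (adjusted p = 0.0312 and 0.0165). The summed Cy5 signal of the 12 factors overlapped between genotypes at E8.5, at 7980 to 9617 in wild type and 8174 to 9344 in the mutant. At E9.5 it did not overlap and was lower in the mutant, at 6815 to 8341 against 8400 to 11225. Without Cdx2 the sum of the other 11 overlapped at E9.5, at 5512 to 6726 in the mutant and 6316 to 9019 in wild type. The part of trophoblast in the fall of Cdx2 was not tested.

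The bases before the transcription start of Cdx2 are shown because the series concerns promoters and Cdx2 is the gene that changed with genotype. They are 250 bases of chr5:147307250-147307499, on the minus strand of GRCm38.p6, from RefSeq, and capitals mark matches to 2 promoter motifs.

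Cdx2: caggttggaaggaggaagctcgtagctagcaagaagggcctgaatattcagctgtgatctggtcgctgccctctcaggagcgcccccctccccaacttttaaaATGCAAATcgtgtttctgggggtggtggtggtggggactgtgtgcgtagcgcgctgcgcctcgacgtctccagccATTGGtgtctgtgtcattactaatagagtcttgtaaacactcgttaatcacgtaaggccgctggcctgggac

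The first match is ATGCAAAT, the octamer read by POU factors, whose first base lies 147 bases before the start, and the second is ATTGG, the CCAAT box on the other strand, at 72 bases. Among the 250-base windows of all 32851 promoters in the table, 1.60% hold the octamer and 33.8% the CCAAT box on either strand. The TATA box (TATAAA), the GC box (GGGCGG) and the Cdx site TTTATG were searched on both strands and have no match in this window, against 12.4%, 32.7% and 10.8% of all windows; the other Cdx site, TTTATA, is the TATA box on the other strand. No binding was measured here, so a match is only a description of the letters.

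**Figure D4:**
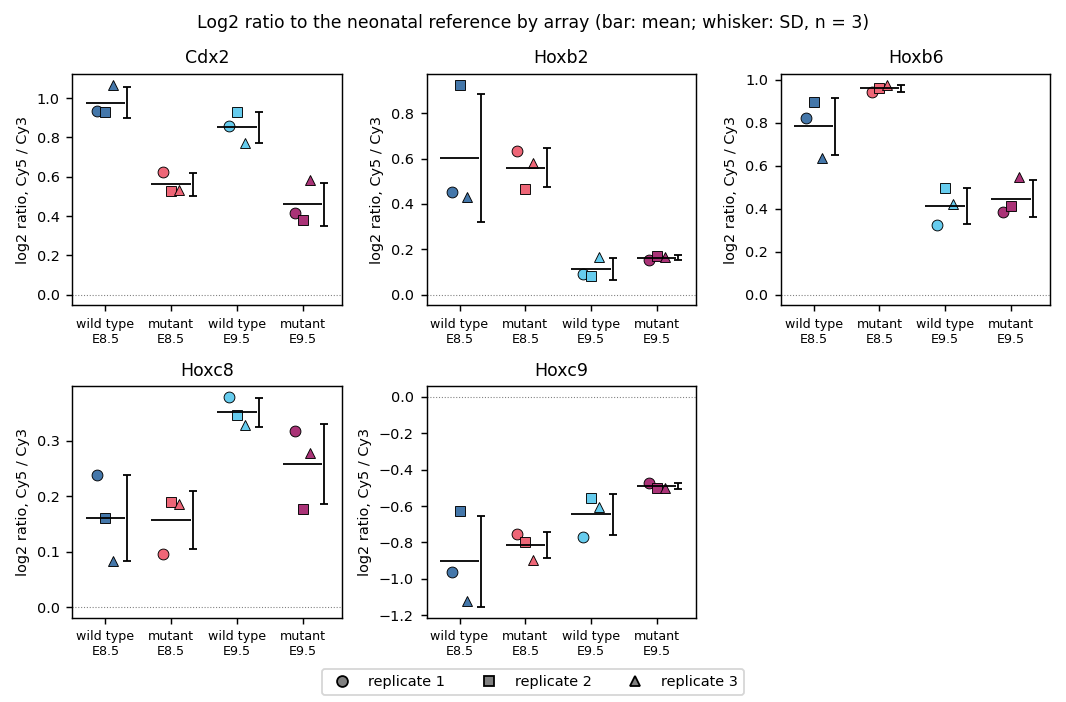
Log2 ratio to the neonatal reference on each array for Cdx2, Hoxb2, Hoxb6, Hoxc8 and Hoxc9, which passed the threshold in some comparison, by group; symbols give the replicate number, bars the mean and whiskers the SD of 3 arrays. For Cdx2 all 6 wild-type arrays lie above all 6 mutant arrays, while Hoxb2 and Hoxb6 separate by stage.

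No Hox gene among the 13 tested genes passed the threshold between genotypes. The tested genes were taken by their signal and not as known targets of Cdx factors, and Hoxa5, Hoxb4 and Hoxb8 were not tested. Over the 13 tested genes, Cdx2 included, the median difference, mutant minus wild type, was -0.0038 at E8.5 and 0.034 at E9.5, against 0.0025 and -8.37e-05 over all genes tested. Among those described here other than Cdx2 the differences lay between -0.28 (Hoxa7) and 0.18 (Hoxb6) at E8.5 and between -0.09 (Hoxc8) and 0.15 (Hoxc9) at E9.5. Before adjustment 3 genes had a p under 0.05 at E8.5 (Cdx2 and Hoxb6 among them) and 1 at E9.5 (Cdx2).

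Hoxb6, a central gene, stood at 0.82, 0.89 and 0.63 in wild type and at 0.94, 0.96 and 0.98 in the mutant at E8.5. It was thus higher in each mutant array at E8.5, by 0.18 ± 0.07 (interval 0.03 to 0.33), with an adjusted p of 0.306. Such groups without overlap were seen in 17.9% of all genes tested. The other, dimmer probe of Hoxb6, well above background on 7 arrays, went the other way at E8.5, by -0.09. Under other ways of processing the difference was 0.05 to 0.23.

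For Hoxb2, an anterior gene, the interval of the E8.5 difference ran from -0.26 to 0.17. For Hoxc8, well above background on 1 of 3 arrays in each genotype at E8.5, the constant added to the signals holds any difference near 0, so its interval gives no bound. The constant also shrinks the differences of other dim genes, such as Hoxb3, Hoxc4 and Hoxa9, with mean processed Cy5 signals of 199, 109 and 150. Small differences there are thus weak bounds. The interval was widest for Hoxa7, from -0.68 to 0.12. Without wild-type E8.5 replicate 2 the Hoxa7 difference turned from -0.28 to 0.03 and that of Hoxb2 from -0.04 to 0.12. The interval of Hoxa7 thus reaches a fall as large as that of Cdx2, -0.42, and that of Hoxb2 does not.

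The difference between the stages in the genotype effect was tested with limma for the same 13 genes, and 0 passed, as did 0% of all genes. Before adjustment 1 gene had a p under 0.05, Hoxb3 (0.20 ± 0.08, adjusted p = 0.783). Hoxb3, an anterior gene of the Hoxb cluster, was at 0.29, 0.26 and 0.27 in wild type and at 0.22, 0.22 and 0.12 in the mutant at E8.5, and at 0.06, 0.15 and 0.14 in wild type and 0.29, 0.15 and 0.25 in the mutant at E9.5.

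**Figure D5:**
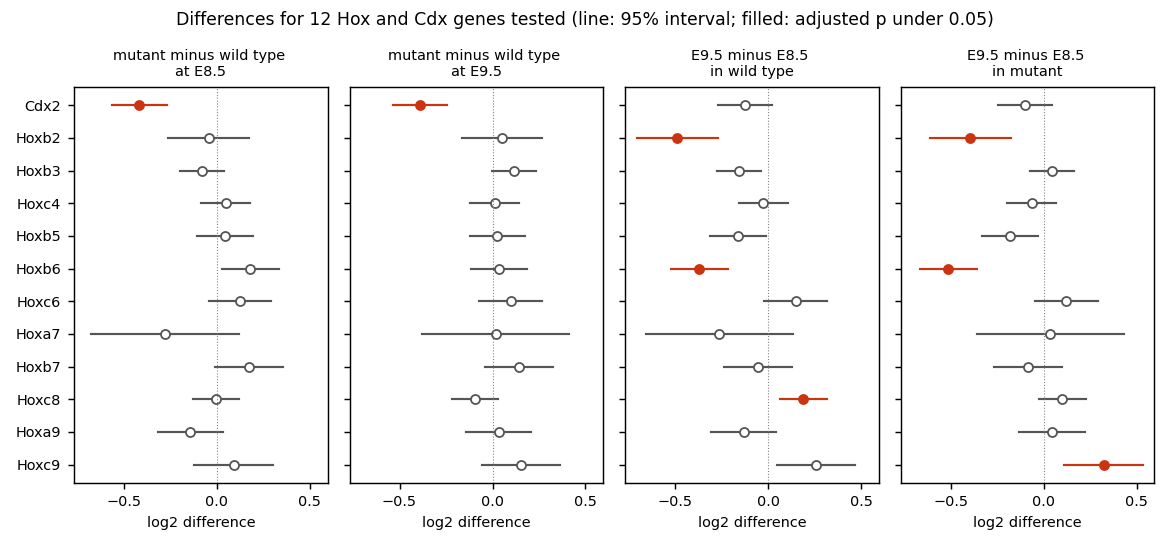
Log2 differences of 12 of the 13 tested genes in the 4 comparisons, with 95% intervals as lines; filled red points passed an adjusted p under 0.05, and genes are ordered by number. Cdx2 is the only filled point in both genotype panels, and Hoxb2 and Hoxb6 are filled in both stage panels; panels share their arrays pairwise.

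The comparison of stages asks how the Hox genes moved while the yolk sac matured from E8.5 to E9.5. Hoxb2 and Hoxb6 fell in both genotypes. Markers of the yolk sac's own cells moved with stage as well: 5 of 10 visceral endoderm markers rose in both genotypes, among them Afp, and the summed Cy5 signal of the mesoderm and mesothelium list went from 35663 to 37565 at E8.5 to 87595 to 101165 at E9.5 in wild type. The part of such shifts in the Hox values was not tested. Hoxc9 rose in the mutant. In all, 4 of 13 genes were called in wild type and 3 of 13 in the mutant, where 23.6% and 21.5% of all genes were called, so the share called was close to that of all genes. The wild-type count includes Hoxc8, which entered the tests only through E9.5 and so had to be higher there. Of all genes, 10.8% fell and 12.8% rose in wild type, and 10.6% fell and 10.9% rose in the mutant. The wild-type and mutant stage comparisons use separate arrays.

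Hoxb2 (probe A_52_P15300) stood at 0.45, 0.93 and 0.43 in wild type at E8.5 and at 0.09, 0.08 and 0.17 at E9.5. In the mutant it was at 0.63, 0.46 and 0.58 at E8.5 and at 0.15, 0.17 and 0.17 at E9.5. In both genotypes every E8.5 array was above every E9.5 array, a separation that 37.3% of all genes tested showed in wild type and 38.5% in the mutant. It fell by 0.49 ± 0.10 in wild type (adjusted p = 0.0032) and by 0.39 ± 0.10 in the mutant (adjusted p = 0.0124). Without wild-type E8.5 replicate 2 the wild-type value was -0.33 (adjusted p = 0.00208). Without the 3 arrays high in trophoblast transcripts the mutant difference of -0.39 had an adjusted p of 0.115.

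Hoxb6 (probe A_51_P232207) fell from the values given above to 0.32, 0.49 and 0.42 in wild type at E9.5 and to 0.38, 0.41 and 0.55 in the mutant. No array of E9.5 reached the lowest array of E8.5 in either genotype. It fell by 0.37 ± 0.07 in wild type (1.29-fold lower, adjusted p = 0.00204) and by 0.51 ± 0.07 in the mutant (1.43-fold lower, adjusted p = 0.0002). Without wild-type E8.5 replicate 2 the wild-type value was -0.31 (adjusted p = 0.00837). With the array software's processed log ratios, which add no constant to the signals, the values were larger, at -0.67 in wild type for Hoxb6 and -0.77 for Hoxb2. With median centring Hoxb6 still passed in the mutant (-0.38, adjusted p = 0.0110), but not in wild type (-0.26, adjusted p = 0.0559), and Hoxb2 passed in neither (-0.38 and -0.25, adjusted p = 0.0574 and 0.168).

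Both genes have another, dimmer probe that did not show the fall. The other probe of Hoxb2 was well above background on 9 arrays and differed by 0.04 in wild type and -0.09 in the mutant, and that of Hoxb6, on 7 arrays, by -0.08 and 0.06. With the mean of each gene's kept probes Hoxb2 fell by 0.23 and Hoxb6 by 0.23 in wild type, both past the threshold (adjusted p = 0.00885 and 0.0116), and in the mutant by 0.24 and 0.23 (adjusted p = 0.00661 and 0.0128). Whether the probes of a gene read different transcripts was not tested.

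Hoxc8 went in wild type from 0.24, 0.16 and 0.08 at E8.5 to 0.38, 0.35 and 0.33 at E9.5. The difference was 0.19 ± 0.06 (adjusted p = 0.0289), in a direction that the filter fixed, so it is given as a description. In the mutant Hoxc8 went from 0.10, 0.19 and 0.19 to 0.32, 0.18 and 0.28, groups that overlap, with a difference of 0.10 ± 0.06. Without wild-type E8.5 replicate 2 the wild-type value was 0.19 again, with an adjusted p of 0.0566, and the call also did not hold without replicate 3 of wild type at E8.5 or replicate 1 or 2 at E9.5 (0.15 to 0.19). Its size depends on the constant added to these dim signals: from the processed log ratios it was 2.05 (adjusted p = 0.0400).

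Hoxc9, a posterior gene, stood at -0.96, -0.63 and -1.12 in wild type at E8.5 and at -0.77, -0.56 and -0.61 at E9.5, groups that overlap through wild-type E8.5 replicate 2. In the mutant it was at -0.75, -0.80 and -0.89 at E8.5 and at -0.47, -0.50 and -0.50 at E9.5, with no overlap. It rose by 0.32 ± 0.10 in the mutant (adjusted p = 0.0300), and its wild-type difference of 0.26 ± 0.10 missed the threshold (adjusted p = 0.0721). With the replicate number as a block, which pairs the stages, the wild-type difference passed (adjusted p = 0.0434). The mutant call did not hold without replicate 2 or 3 at E8.5 or any array at E9.5 (0.28 to 0.33), or from the processed log ratios (0.57, adjusted p = 0.0753). Without wild-type E8.5 replicate 2 the wild-type difference was 0.40 and passed (adjusted p = 0.00208).

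Without that array, then, Hoxb2 and Hoxb6 fell and Hoxc9 rose in both genotypes. The difference between genotypes in the stage effect is the interaction given above, in which no gene passed, so a change called in 1 genotype only is not shown to differ between them.

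The other 7 tested genes passed in no comparison with all 12 arrays. Cdx2 itself differed between stages by -0.13 ± 0.07 in wild type and -0.10 ± 0.07 in the mutant (adjusted p = 0.203 and 0.334). Hoxb5, a central gene, was at -0.18, -0.03 and -0.31 in wild type at E8.5 and -0.39, -0.23 and -0.39 at E9.5, and at -0.18, -0.11 and -0.09 in the mutant at E8.5 and -0.32, -0.33 and -0.27 at E9.5. Its mutant groups do not overlap, and the difference was -0.18 ± 0.07 (adjusted p = 0.0815), which passed without wild-type E8.5 replicate 2 (-0.18, adjusted p = 0.0409).

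Hoxb7 was at -0.34, -0.58 and -0.47 in wild type and -0.22, -0.23 and -0.43 in the mutant at E8.5, and at -0.69, -0.48 and -0.39 and at -0.41, -0.30 and -0.42 at E9.5. Hoxc6, a central gene of the Hoxc cluster, was at 0.19, 0.25 and 0.10 in wild type and 0.37, 0.34 and 0.19 in the mutant at E8.5, and at 0.15, 0.47 and 0.36 and at 0.49, 0.36 and 0.42 at E9.5. Hoxc4 stayed near the reference, between -0.08 and 0.17 on all arrays. Its groups overlap in every comparison, as do those of Hoxb7 and Hoxc6.

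Hoxa9, a posterior gene of blood progenitors, was at -0.32, 0.04 and -0.27 in wild type and -0.28, -0.31 and -0.38 in the mutant at E8.5, and at -0.35, -0.34 and -0.24 and at -0.21, -0.36 and -0.26 at E9.5. Hoxa7 was at -1.53, -0.61 and -1.59 in wild type and -1.68, -1.41 and -1.48 in the mutant at E8.5, and at -1.65, -1.38 and -1.48 and at -1.44, -1.44 and -1.58 at E9.5. In both genes 1 array, wild-type E8.5 replicate 2, stands above the other 11. Without it their wild-type stage differences went from -0.13 to -0.02 (Hoxa9) and from -0.26 to 0.05 (Hoxa7).

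The 28 genes that did not enter the tests gave log2 ratios between -0.71 (Hoxa11) and 0.59 (Hoxb9 on wild-type E8.5 replicate 2). Hoxb9 lay between -0.45 and -0.28 on its other 11 arrays. Hoxd4, an anterior Hoxd gene, had a Cy5 signal of 277 on wild-type E8.5 replicate 2 and of 27.1 to 125 elsewhere, and Hoxa2 of 159 there and of at most 23 elsewhere. Hoxa2, Hoxb9 and Hoxd4 were well above background on 1, 2 and 3 arrays, in each case with the array that was also high in heart and neural markers.

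The genes around the Hox system were read from lists of related genes. Between genotypes, 0 of 8 measured TALE cofactors (the Pbx, Meis and related partners of Hox proteins), 0 of 30 Polycomb and trithorax genes, 0 of 14 genes beside the Hox clusters and 0 of 7 posterior Wnt, FGF and mesoderm genes passed at either stage with limma. Of all genes tested 1.44% passed at E8.5 and 1.99% at E9.5, so counts of 0 in lists this small are near that share. At an unadjusted p under 0.05 the counts were 0, 2, 4 and 0 at E8.5 and 0, 1, 2 and 0 at E9.5. The share of all genes with such a p was not counted, so these counts are only a description. Of 13 measured retinoid genes 1 passed at E8.5, though not with median centring, and 0 passed at E9.5, where 2 had an unadjusted p under 0.05. Cyp26a1, which breaks down retinoic acid, passed at E8.5, higher in the mutant, only with the scan as a block.

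Between stages, retinoid genes moved in both directions. Cyp26a1 was at 1.38 to 1.5 in wild type at E8.5 and at 0.20, 0.06 and 0.15 at E9.5, and it fell by 1.31 ± 0.10 in wild type and by 1.47 ± 0.10 in the mutant. Dhrs3 and Rxra rose in both genotypes. In wild type 4 of the 13 rose and 2 fell, and in the mutant 3 rose and 2 fell, where 23.6% and 21.5% of all genes were called, with medians of -0.10 and 0.03 against -0.01 in both over all genes. Aldh1a2 fell by 0.59 ± 0.20 in wild type (adjusted p = 0.0410); without wild-type E8.5 replicate 2 the value shrank to -0.24 (adjusted p = 0.0224).

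Among Polycomb and trithorax genes, 2 of 30 rose and 5 fell in wild type, and 0 rose and 4 fell in the mutant, shares near or under the 23.6% and 21.5% of all genes called. The wild-type counts were 3 and 2 without wild-type E8.5 replicate 2. Ezh2, the methyltransferase of the Polycomb complex that silences Hox genes, fell by 0.40 ± 0.07 in wild type and by 0.27 ± 0.07 in the mutant, and Phc1, of the other Polycomb complex, by 0.30 ± 0.08 and 0.38 ± 0.08; without that array the wild-type value of Phc1 was -0.24 (adjusted p = 0.0519). Tgif2 was the only TALE gene called, lower at E9.5 in both genotypes (-0.35 ± 0.11 and -0.33 ± 0.11), and without that array its wild-type value was -0.23 (adjusted p = 0.129). With arrays centred on their medians, which moves the median of all genes up by 0.11 in wild type and 0.14 in the mutant, no Polycomb or trithorax gene was lower and Tgif2 was not called. Of the genes beside the Hox clusters, Copz2, which lies on the Hoxb1 side of the Hoxb cluster, rose by 0.47 ± 0.07 and 0.41 ± 0.07, also with that centring.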

How the data were processed

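RNA of 12 yolk sac samples was amplified from 500 ng and hybridised to 2-colour Agilent arrays, per the labels' protocols. For each spot the authors deposited mean, background and processed intensity values, flags of 0 or 1 and a log10 ratio of the processed signals, Cy5 over Cy3, all from Feature Extraction 9.5.1.1 per the file headers. A deposited table of the whole series gives log2 ratios, which match the processed log ratios once each probe is centred on its median. How that table was filtered is not stated.

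In R 4.3.3 with limma 3.58.1, background was corrected with normexp (offset 50) and log2 ratios were normalised within each array by loess, control spots at weight 0. Spots marked as outliers or over 20 units below their background were left out, and spots of a probe averaged. Each gene kept its probe with the highest mean processed Cy5 signal; a gene was tested if Cy5 was well above background on the 3 arrays of some group (13895 of 27573 genes). Limma was fitted to 4 group means over the 12 arrays, with Benjamini-Hochberg adjustment over all genes. The fit was tested on simulated data. No value was missing among the Hox and Cdx genes. P-values measure the spread between replicates, whose source the labels call biological without further detail, and the number of arrays limits the precision.

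Replicate number and scan coincide: each of 3 scans held 1 array of each group, though the headers give 2 of the scans the same slide barcode. Deviations of same-numbered arrays of the groups compared correlated with r of 0.07 to 0.32 (genotypes, E8.5), 0.12 to 0.28 (genotypes, E9.5), 0.20 to 0.40 (stages, wild type) and 0.18 to 0.25 (stages, mutant), so the block was run as an alternative; 0 columns of per-sample values were left unused.

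The 41 genes and all gene lists were chosen with earlier results of these data known. Named with all values were Cdx2 and each Hox or Cdx gene that entered the tests; other genes were named if they were on a list and passed, or marked a tissue. Some genes are not reported here, so fewer may be named than are counted. The 250 bases before the Cdx2 start come from RefSeq (GRCm38.p6), whose promoter table held 24 of the 41 genes.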

Additional observations from a re-analysis of the deposited data

Results flagged for a closer look

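Hoxb3 had genotype groups that did not overlap at either stage, in opposite directions: the mutant was lower on every array at E8.5 (-0.08 ± 0.06) and higher at E9.5 (0.12 ± 0.06). At E8.5 17.9% and at E9.5 17.1% of all genes tested had groups that did not overlap, and so did 4 of the 13 Hox and Cdx genes tested at each stage. The difference between these effects was 0.20 ± 0.08 with an adjusted p of 0.783 in limma, so it failed the correction over all genes tested. Its other probe, well above background on 3 arrays, gave -0.0024 and 0.0055.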

How the results depend on the processing

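The fall of Cdx2 in the mutant kept its direction under all 26 alternatives run at each stage (-0.53 to -0.37 at E8.5 and -0.51 to -0.35 at E9.5) and its call under 24 and 25 of them, with adjusted p of 0.00413 to 0.224 and 0.00273 to 0.256. Over the alternatives the adjusted p of the called stage differences reached 0.0574 and 0.168 for Hoxb2 in wild type and mutant, 0.0559 and 0.0128 for Hoxb6, 0.256 for Hoxc8 and 0.215 for Hoxc9. With median centring 0 genes were called between genotypes at E8.5 and 0 at E9.5, and 1 (Hoxc9) between stages in wild type. Median centring also made 20% of all genotype calls at E8.5 and 19.2% at E9.5 higher in the mutant, against 49.5% and 45.8%, and 94.7% and 95.5% of stage calls higher at E9.5 in wild type and mutant, against 54.1% and 50.8%; under it Cdx2 differed between stages by 0.012 in wild type and 0.068 in the mutant, the other way from the reported values. It left 10, 26, 1445 and 1753 genes called in the 4 comparisons, against 200, 277, 3277 and 2990. With Xist as a covariate 0 genes were called between genotypes at E8.5 and 2 between stages in wild type. The wild-type stage count was also 2 with the authors' table, with only the groups compared and without the 3 arrays high in trophoblast transcripts, and the mutant count without those arrays was 1. Leaving out 1 array at a time gave 1 to 1 genes between genotypes at each stage, 2 to 4 between stages in each genotype and 0 to 0 for the interaction; the count of 2 in wild type came without wild-type E9.5 replicate 2. The interaction of Cdx2 turned sign without the 3 trophoblast-high arrays (-0.094), without these and wild-type E8.5 replicate 2 (-0.070, chosen after seeing the data), and without replicate 3 of wild type at E8.5 or E9.5 or of the mutant at E9.5; leaving out each array gave -0.038 to 0.066. That of Hoxb6 turned with the mean of kept probes (0.0020). With the replicate block the counts were 1, 1, 5 and 3, with Hoxc9 added in wild type, and 292 and 357 genes were called between genotypes in all. The software's looser flag for signal above background let 24 genes through in place of 13. The headers give replicates 2 and 3 the same slide barcode and positions although their contents differ, so the slide is uncertain; with the slide barcode as a block the counts were 1, 1, 3 and 3. Where not stated, the cause was not tested. Dim signal limits Hoxc8 and the genes not tested, whose differences shrink with the constant added. The same constant shrinks the ratios of other dim genes that were tested, such as Hoxb3, Hoxc4, Hoxa9 and Hoxc6. In wild type at E8.5 the mean log2 ratio of Hoxb3 was 0.27, against 1.67 from the processed log ratios. For Hoxc6 in the mutant at E9.5 the values were 0.42 and 1.56.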
